A study of Mus musculus with 5 samples.

Results

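The 39 genes described here encode the enzymes, carriers and regulators of fatty acid oxidation in mitochondria and peroxisomes. They were chosen by name as a pathway, with earlier results of these data known. All 39 were found among the 17389 genes of the count matrix. Single cells of dissociated adult kidneys were sequenced in 5 libraries of *Fame* knockout (KO) and wild type (WT) littermates of the *FVB/Ant* strain. The 3 KO libraries (KO male, KO female and KO mix, the last with cells of both sexes) came from mice with a CRISPR-made double STOP codon behind the start codon of *Fame* (1700011H14Rik, Ccdc198), and the 2 WT libraries (WT female and WT mix) from mice without it. No treatment was given to either genotype. The number of mice behind a library and their exact age are not given in the sources used here, so the spread between libraries may be technical, and WT has no library of male cells alone.

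Fatty acids reach the mitochondrial matrix as carnitine esters and are shortened there by repeated rounds of dehydrogenation, hydration, second oxidation and thiolysis, with electrons passed to the respiratory chain by the electron transfer flavoprotein. Peroxisomes shorten very long and branched chains in a parallel spiral whose first step makes hydrogen peroxide. The proximal tubule of the kidney, which reabsorbs most of the filtrate, is known to rely on fatty acids as fuel, and the nuclear receptor PPARα is a known regulator of many of these genes.

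The authors assigned 19 cell types. PTs and PTc denote the straight and the convoluted proximal tubule, PT1 and PT2 further clusters they placed in the proximal tubule, PTf a small cluster they named for female cells, LOH the loop of Henle and DCT the distal convoluted tubule. Libraries held 1794 to 3567 cells and 9791091 to 15950717 unique molecular identifiers (UMIs, each standing for 1 captured RNA molecule). *Slc34a1*, the sodium phosphate cotransporter of the proximal tubule, averaged 3013 CPM in PTs, against 212 CPM in LOH, where uromodulin (*Umod*) averaged 14797 CPM. Of 9 proximal tubule markers, those above their mean level in red blood cells, which should lack them, numbered 8 in PTs, 7 in PTc, 6 in PT1, 9 in PT2, 4 in PTf and 0 in LOH and DCT. In PTf, *Slc34a1* (611 CPM, against 986 CPM in red blood cells), *Slc22a6*, *Slc5a2*, *Slc5a12* and *Slc13a3* lay at or below that level. *Slc5a2*, *Slc5a12* and *Slc13a3* did so in PT1 as well. The other 4 markers were above it in PTf, with *Lrp2* at 2373 CPM (511 CPM in red blood cells) and *Kap* at 92395 CPM (8571 CPM). *Cubn* had 203 CPM (69.0 CPM) and *Slc7a13* 115 CPM (71.1 CPM), the latter with 0 to 370 CPM over the PTf libraries. PTf means leave out KO male, and those of red blood cells WT mix, each for too few cells. The libraries compared thus differ. The markers thus bear out a proximal tubule label for PTf only in part. *Fame* RNA was present in both genotypes, with 51.4 to 182 CPM over PTs, PTc, PT1 and PT2 together, and STOP codons do not by themselves remove the RNA. The 3 libraries of 1 sex were sequenced in run 2 and both mixed libraries in run 3, where the median share of mitochondrially encoded UMIs per cell was 29.4% and 28.4%, against 12.6% to 15.3% in run 2. Library labels of sex fitted the markers: KO male had 0 *Xist* UMIs, and both female libraries had 0 UMIs of 4 Y-linked genes. The mixed libraries differed in their make-up, since 255 proximal tubule cells of KO mix carried a Y-linked UMI without *Xist* and 713 the reverse, against 464 and 182 cells in WT mix. Levels are given below as CPM, which are the UMIs of a gene scaled to the total UMIs of all cells of that type in a library. Fewer cells of a kind within a cluster and less RNA per cell cannot be told apart in such sums.

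Several members lie next to each other in the genome (GRCm38, GENCODE vM21). *Hadha* (chr5:30118304-30155162, minus strand) and *Hadhb* (chr5:30155248-30184593, plus strand), the 2 subunits of the mitochondrial trifunctional protein, are read in opposite directions from neighbouring start sites, and their 300-base promoter windows overlap by 228 bases. *Acsm2* (chr7:119554340-119600690), *Acsm1* (chr7:119607026-119662515) and *Acsm3* (chr7:119760923-119787513), medium-chain acyl-CoA synthetases, stand in a row on the plus strand. *Eci3* (chr13:34946614-34963810) and *Eci2* (chr13:34977748-35027096), both enoyl-CoA isomerases, are neighbours on the minus strand. Paralogs such as *Eci2* and *Eci3*, *Acaa1a* and *Acaa1b* or the *Acsm* genes can share reads, and 9 members overlap another annotated gene on the same strand and 18 on the other strand, so their counts carry that uncertainty.

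Promoter windows (250 bases before to 50 after the start, RefSeq, GRCm38.p6) were found for 34 members. Those of 4 genes on which the results below turn are printed 5′ to 3′ on the gene's strand. Capitals mark the GC box GGGCGG and the STAT5 element TTCNNNGAA in *Hadhb*, the TATA box TATAAA in *Acsm2*, the CCAAT box in *Acsm3*, and the GC and CCAAT boxes in *Ehhadh*, searched on both strands. The windows are chr5:30155003-30155302 (plus strand) for *Hadhb*, chr7:119554090-119554389 (plus strand) for *Acsm2*, which has a further window downstream, chr7:119760673-119760972 (plus strand) for *Acsm3* and chr16:21787785-21788084 (minus strand) for *Ehhadh*.
Hadhb: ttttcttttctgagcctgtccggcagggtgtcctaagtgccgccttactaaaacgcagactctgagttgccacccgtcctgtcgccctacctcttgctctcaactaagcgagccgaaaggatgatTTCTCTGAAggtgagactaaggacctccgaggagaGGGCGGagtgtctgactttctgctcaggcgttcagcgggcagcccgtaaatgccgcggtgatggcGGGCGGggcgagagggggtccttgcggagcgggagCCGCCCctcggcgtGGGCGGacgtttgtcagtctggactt
Acsm2: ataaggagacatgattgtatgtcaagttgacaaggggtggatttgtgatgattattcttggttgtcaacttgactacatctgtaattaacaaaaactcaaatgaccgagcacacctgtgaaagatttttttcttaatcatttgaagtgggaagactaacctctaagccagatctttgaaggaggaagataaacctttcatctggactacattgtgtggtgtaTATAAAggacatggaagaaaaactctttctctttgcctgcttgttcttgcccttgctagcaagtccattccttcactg
Acsm3: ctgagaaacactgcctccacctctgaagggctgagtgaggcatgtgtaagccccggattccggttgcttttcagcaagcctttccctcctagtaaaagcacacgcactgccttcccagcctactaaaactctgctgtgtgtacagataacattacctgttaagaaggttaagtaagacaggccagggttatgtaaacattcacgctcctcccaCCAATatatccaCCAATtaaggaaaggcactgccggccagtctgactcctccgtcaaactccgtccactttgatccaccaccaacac
Ehhadh: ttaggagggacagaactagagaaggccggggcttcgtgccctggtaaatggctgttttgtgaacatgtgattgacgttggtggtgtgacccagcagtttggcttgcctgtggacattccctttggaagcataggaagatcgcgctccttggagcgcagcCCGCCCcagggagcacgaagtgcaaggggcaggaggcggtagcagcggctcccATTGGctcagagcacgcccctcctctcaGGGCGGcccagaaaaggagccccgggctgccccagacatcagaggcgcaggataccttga
GGGCGG occurred in the windows of 25 of the 34 members (73.5%), against 35.7% of all 32851 promoter windows, and CCAAT in 14 members (41.2%), against 37.4% of all windows. TATAAA occurred in 1 member, *Acsm2* (2.94%), against 13.6% of all windows. The PPAR element (direct repeat 1) was in 0 of the 34 windows and in 0.381% of all windows. A match describes letters in a window and no more.

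Across cell types, the members took their largest share of RNA in the proximal tubule. They summed to 2.45%, 2.62% and 1.58% of all UMIs in PT1 of KO male, KO female and KO mix, against 2.74% and 1.68% in WT female and WT mix, and to 2.21%, 1.92% and 1.23% in PTs of the KO libraries, against 1.94% and 1.24% in WT. In LOH the sum lay between 0.522% and 0.726%. Of 10 cell types with at least 20 cells in all 5 libraries, the highest mean level was in a proximal tubule type for 32 of 39 members. It was in PT1 for 22, PTs for 7, PTc for 2 and PT2 for 1. Cells of PT1 had library medians of 1346 to 1769.5 UMIs and 5.48% to 20.4% mitochondrial UMIs. In PTs these were 4113 to 8708 UMIs and 13.8% to 31.1%. *Xist* averaged 39.7 CPM in PT1, against 313 CPM in PTs. Such a difference in RNA make-up alters CPM, and its part in the PT1 levels was not tested. The median over members of the log2 difference in level, averaged over libraries, was 0.88 between PTs and LOH and 0.47 between PTs and PTc. Taken in each library alone, the median ran from 0.539 to 1.02 (SD 0.18) and from 0.216 to 0.509 (SD 0.11). In every library, 24 members were higher in PTs than in LOH. The clusters were made from these genes among others, so levels across types are a description with no test.

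**Figure D1:**
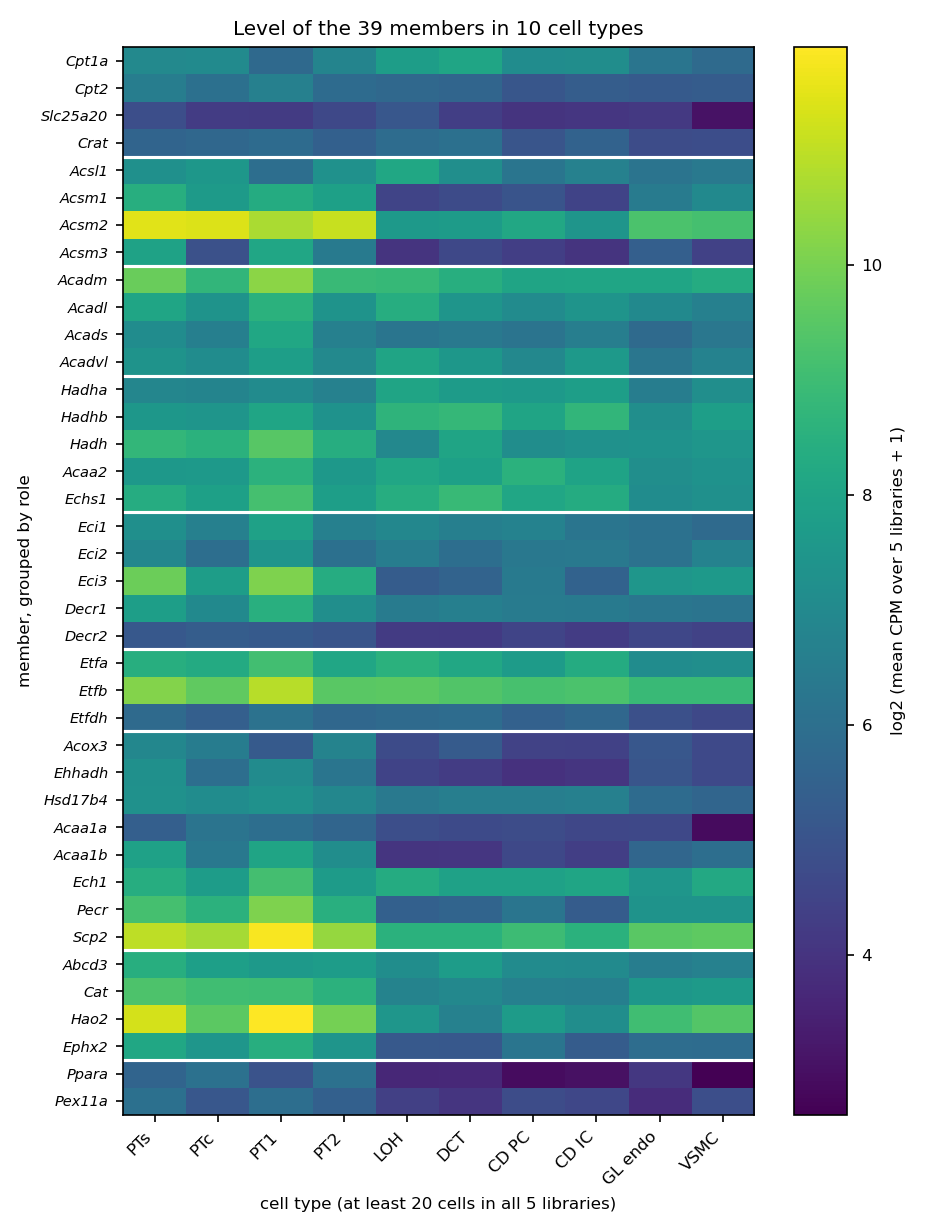
Level of each of the 39 members (rows, grouped by role between white lines) in the 10 cell types with 5 libraries (columns), as log2 of the mean CPM over the 5 libraries plus 1. *Scp2*, *Hao2* and *Acsm2* are the brightest rows in the proximal tubule columns, and *Cpt1a*, *Hadha* and *Hadhb* are brighter in LOH and DCT.

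The most abundant members in the proximal tubule were peroxisomal or handled medium chains. *Scp2*, the sterol carrier protein and peroxisomal thiolase of branched chains, averaged 3620 CPM in PT1, 2007 CPM in PTs and 371 CPM in LOH. *Hao2*, the peroxisomal oxidase of long-chain 2-hydroxy acids, averaged 3813 CPM in PT1 and 2505 CPM in PTs, and *Acsm2* 2872 CPM in PTs and 2707 CPM in PTc. *Etfb*, the β subunit of the electron transfer flavoprotein, averaged 1923 CPM in PT1 and was spread more evenly, with 749 CPM in LOH. Red blood cells should lack this RNA, so their level serves as a rough measure of free RNA. A level at or below it does not by itself show that the RNA of another cell type is free. The *Slc34a1* level of red blood cells averaged 986 CPM over 4 libraries. *Acsm2* averaged 921 CPM and *Hao2* 846 CPM there, above the 191 and 179 CPM of LOH. In LOH, 18 of 39 members were above red blood cells in each of the 4 libraries compared and 11 were at or below them in each, and in DCT these counts were 17 and 8.

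In every library, 7 members were lower in PTs than in LOH, namely *Cpt1a*, *Crat*, *Acadl*, *Acadvl*, *Hadha*, *Hadhb* and *Etfa*. Higher in DCT than in PTs in every library were 5, namely *Cpt1a*, *Acadvl*, *Hadha*, *Hadhb* and *Echs1*. *Cpt1a*, the carnitine palmitoyltransferase that gates entry of long chains, averaged 268 CPM in DCT and 221 CPM in LOH, against 125 CPM in PTs. Both subunits of the trifunctional protein were likewise higher there, with *Hadhb* at 448 CPM in DCT and 406 CPM in LOH, against 184 CPM in PTs, and *Hadha* at 207 and 261 CPM, against 116 CPM. *Acadvl*, the very-long-chain acyl-CoA dehydrogenase, had 262 CPM in LOH and 166 CPM in PTs. *Acadl*, which acts on long chains, had 340 CPM in LOH and 267 CPM in PTs but was lower in DCT than in PTs in every library, with 175 CPM. *Etfa*, the α subunit of the electron transfer flavoprotein, had 376 CPM in LOH and 344 CPM in PTs, and was also lower in DCT. The gap was less even for *Crat*, carnitine acetyltransferase, which was higher in DCT than in PTs in 4 of 5 libraries. *Slc25a20*, the carnitine-acylcarnitine translocase, had 33.9 CPM in LOH and 27.5 CPM in PTs, was higher in LOH in 3 of 5 libraries and was lower in DCT than in PTs in 4 of 5. *Acsl1*, the long-chain acyl-CoA synthetase, averaged 281 CPM in LOH, with 256 to 307 CPM over the libraries, and the male and mixed libraries had less in PTs, while both female libraries had more.

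PTf, whose markers only in part fit the proximal tubule, had 9 to 152 cells in a library. In the 4 libraries with enough cells, 7 members were higher and 19 lower in PTf than in PTs in every library, a description since the clusters were made from these genes too. *Acadm*, the medium-chain acyl-CoA dehydrogenase, had 5721 and 3888 CPM in PTf of KO female and KO mix, against 6376 and 3229.6 CPM in WT female and WT mix, while the same libraries had 719 to 840 CPM in PTs. KO male held 9 cells of the cluster, too few for a level. *Acsm2*, in contrast, averaged 314 CPM in PTf, and was lower there than in PTs in 4 of 4 libraries. Cells of PTf with a Y-linked UMI and no *Xist* numbered 4 in KO mix and 6 in WT mix, against 88 and 24 with *Xist* alone.

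The comparison of genotypes asked whether loss of *Fame* changed these genes within a cell type. In the fit without covariates, no member passed an adjusted p of 0.05 between KO and WT in PTs, PTc, PT1, PT2, LOH or DCT. Neither did any other gene (0% of 10342, 9099, 5646, 6015, 8952 and 6123 genes tested by edgeR's quasi-likelihood test on summed counts). At an unadjusted p under 0.05 stood 0 members in each type, against 12 genes (0.116%) in PTs, 38 (0.418%) in PTc, 12 (0.213%) in PT1, 25 (0.416%) in PT2, 59 (0.659%) in LOH and 34 (0.555%) in DCT. In every type, far fewer genes passed than the nominal share at this threshold, so a count of 0 members says little about them. DESeq2 also called 0 members and 0 genes in every type, with 0 members and 1 to 8 genes at an unadjusted p under 0.05. In PTs the KO and WT libraries overlapped for all 39 members, while 6.61% of all genes did not overlap. The median log2 fold change of the members was 0.16 in PTs (all genes 0.00), 0.07 in PTc, -0.01 in PT1, 0.10 in PT2, 0.06 in LOH and 0.08 in DCT. The 95% intervals were wide, with a median half-width of 0.62 (PTc) to 0.96 (PTs) on the log2 scale. For a typical member, a change smaller than that could not reach even an unadjusted p of 0.05, and an adjusted p asks for more.

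**Figure D2:**
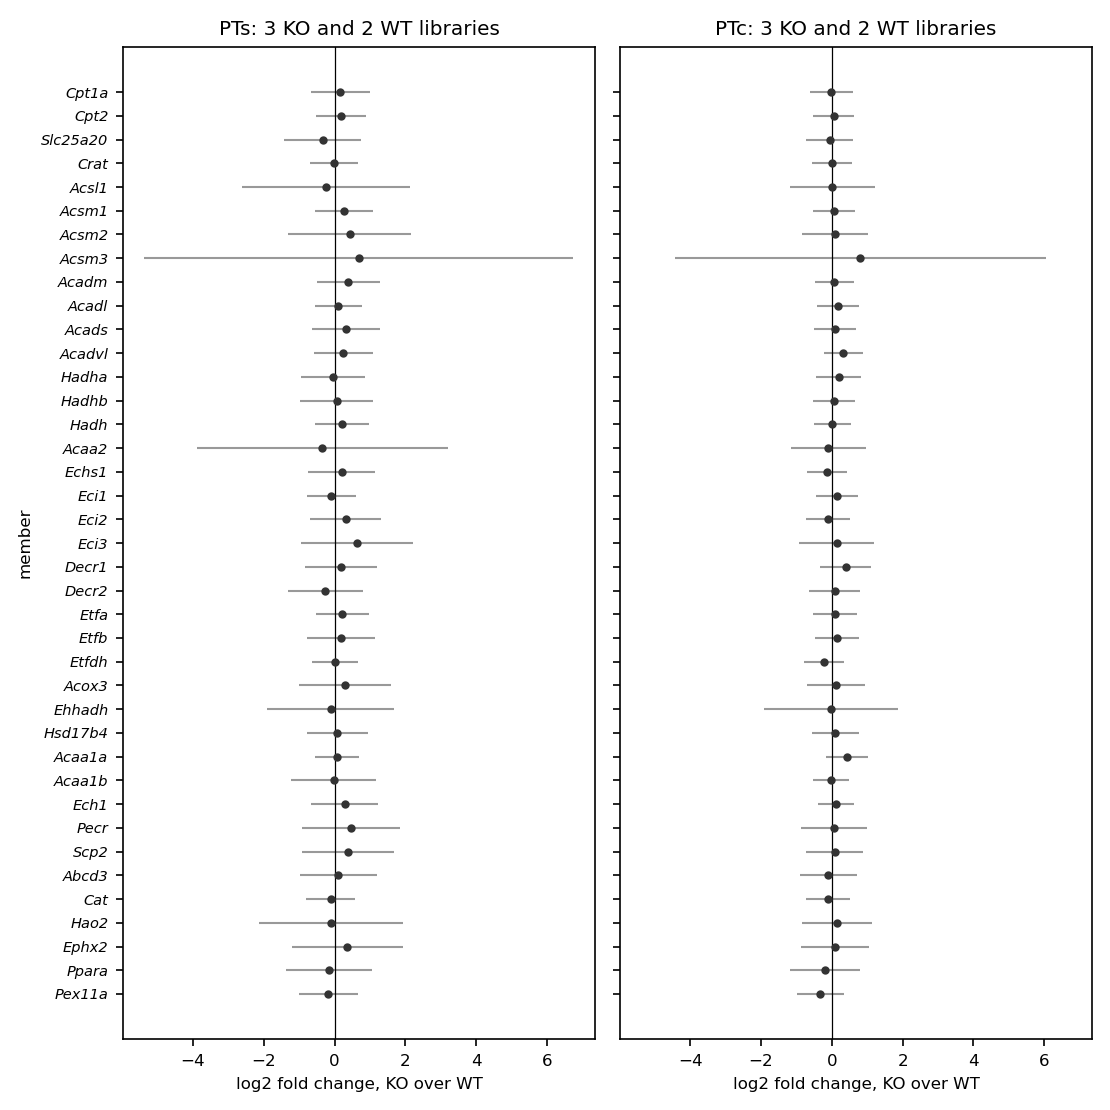
Log2 fold change of KO over WT for the 39 members in PTs (left) and PTc (right), with 95% intervals from edgeR's quasi-likelihood fit over 3 KO and 2 WT libraries. Every interval includes 0.

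The members with the lowest p showed how the libraries were spread. *Acadm* in PTs had 1264, 781 and 840.2 CPM in the KO male, KO female and KO mix libraries, against 809 and 719 CPM in WT female and WT mix, and KO male alone stood above the other 4 libraries (log2 fold change 0.39, 95% interval -0.51 to 1.28). *Acaa1a*, the peroxisomal thiolase A, had 87.9, 76.3 and 75.5 CPM in the KO male, KO female and KO mix libraries, against 74.5 and 42.8 CPM in WT female and WT mix in PTc. Every KO library was above both WT libraries, by little in 2 of the 3 (log2 fold change 0.42, 95% interval -0.17 to 1.01). The log2 fold change of *Acaa1a* was 0.09 over cells with at most 25% mitochondrial UMIs, 0.16 without WT mix and 0.76 without WT female. *Acadl*, the long-chain acyl-CoA dehydrogenase, had 207, 176 and 172 CPM in the KO male, KO female and KO mix libraries, against 159.8 and 106 CPM in WT female and WT mix in PT2, where the groups did not overlap (log2 fold change 0.47, 95% interval -0.22 to 1.16). The share of all genes without overlap is not given for PTc or PT2, so the separations of *Acaa1a* and *Acadl* stand without a background. *Cpt2*, the inner carnitine palmitoyltransferase, was on the high side in PT2 (0.44) and on the low side in PT1 (-0.24), neither past the threshold. In DCT, *Decr2*, the peroxisomal dienoyl-CoA reductase, had 7.19, 13.6 and 15.4 CPM in the KO male, KO female and KO mix libraries. WT female and WT mix had 25.4 and 25.2 CPM. These levels rest on few UMIs, since DCT held 556533 UMIs of all genes in KO male and 158743 in WT mix. In LOH, *Eci3* had 70.8, 43.0 and 27.0 CPM in the same KO libraries, against 27.7 and 25.97 CPM in WT female and WT mix. The remaining members of this kind, *Eci1* and *Crat* in PT1, *Acadvl* and *Decr1* in PTc, *Slc25a20* in PT2, *Hao2* and *Decr2* in LOH, *Acsm1* and *Pecr* in DCT and *Acads* and *Eci3* in PTs, had unadjusted p of 0.0735 to 0.436. These values moved with the settings as well. Over 13 alternatives *Acadm* in PTs lay between 0.10 and 0.56 and *Acadl* in PT2 between 0.24 and 0.77, and over 12 alternatives *Eci3* in LOH lay between 0.39 and 1.04 and *Decr2* in DCT between -1.23 and -0.83. Of these 18 values, 4 changed sign under some setting, namely *Eci3* (-0.01 to 1.27) and *Acads* (-0.09 to 0.52) in PTs, *Crat* in PT1 (-0.63 to 0.00) and *Pecr* in DCT (-0.24 to 1.13).

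With libraries of the same sex composition taken as pairs (a replicate block, in which KO male has no partner), 1 member was called: *Ephx2*, the soluble epoxide hydrolase, in PT1 (log2 fold change -0.61, SE 0.15, adjusted p = 0.0208), where 0.195% of genes passed. *Ephx2* in PT1 had 511, 174 and 300.2 CPM in the KO male, KO female and KO mix libraries, against 198 and 551 CPM in WT female and WT mix, so the pair of female libraries and the pair of mixed libraries were each lower in KO. It was also higher in KO male than in both female libraries, and the cells marked as male were a larger part of WT mix than of KO mix. The part of that difference in the call was not tested. No other member was called under this block or with the run as a block.

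More genes were called between the sexes than between the genotypes. The members were chosen with earlier results of these data known, so their share beside that of all genes is a description. In PTs, 20 of 39 members (51.3%) passed an adjusted p of 0.05 between the KO male library and the 2 female libraries, 13 higher and 7 lower in the male, beside 23.4% of the 10342 genes tested. Shares were 8 of 39 in PTc (background 4.79%), 7 of 39 in PT1 (6.15%), 9 of 39 in PT2 (6.15%), 4 of 39 in LOH (0.938%) and 2 of 38 in DCT (0.735%). The male arm is 1 library, KO male, so every p and SE here takes the spread within the female and the mixed pair for its own, and no spread among male libraries was measured. Sex cannot be told apart from anything else particular to that library, and higher or lower in the male means in KO male. By the interaction of cell type and sex in 1 fit with the library as a block, 19 members differed between PTs and PTc in their male minus female change (background 10.0%), 11 between PTs and LOH (8.45%) and 0 between PT1 and PT2 (0.0685%, with 3 members at an unadjusted p under 0.05). Single libraries moved these counts. Without a female library the comparison is 1 library against 1, with the spread of the mixed pair alone. No share over all genes is given for these fits, so a change in members cannot be told from a change in all genes. In PTs 12 members were called without WT female, and in PTc 15 without KO mix or without WT mix. In PT1 the count was 4 without KO female, 13 without KO mix and 15 without WT mix, in LOH 2 and in DCT 1 without either female library. Of the calls, 9 of 20 in PTs, 4 of 8 in PTc, 3 of 7 in PT1, 3 of 9 in PT2, 4 of 4 in LOH and 2 of 2 in DCT were lost under at least 1 alternative setting. Each member is described by role, with its level in PTs first.

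**Figure D3:**
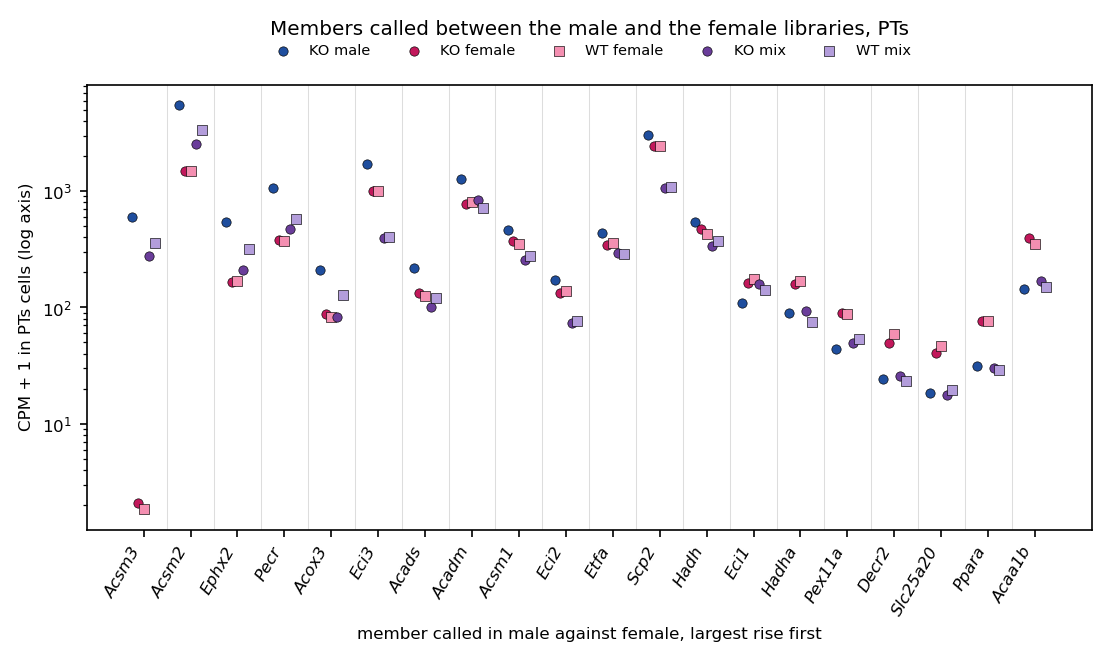
Level in PTs (CPM plus 1, log axis) of the 20 members called between the male and the female libraries, 1 point per library, ordered from the largest rise in the male to the largest fall. KO and WT female points nearly coincide, and *Acsm3* separates most, with 593 CPM in KO male and 1.09 and 0.836 CPM in the female libraries.

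Of the enzymes that activate fatty acids, the 3 medium-chain synthetases were called higher in KO male. *Acsm3* had 593 CPM in the KO male library, against 1.09 and 0.836 CPM in the KO and WT female libraries, with 278 and 355 CPM in KO mix and WT mix, and the female values rest on 6 and 4 UMIs. The ratio of KO male to the summed female libraries was 610.2 in PTs, with a 95% counting interval of 331 to 1274 (exact, Clopper-Pearson), which covers counting error only. It was 54.0 (27.4 to 121) in PTc. In PT1 and PT2, where the female libraries held 2 and 3 UMIs, it was 330.2 (90.5 to 2742) and 126 (41.8 to 623). All 4 types were called higher in KO male. *Acsm2* had 5524 CPM in the KO male library, against 1475 and 1487 CPM in the KO and WT female libraries, with 2543 and 3331 CPM in KO mix and WT mix (log2 fold change 2.10, SE 0.14, adjusted p = 7.20e-08). Its change was smaller in PTc (1.01), and the difference between these types was itself called (1.08, SE 0.08, adjusted p = 1.08e-30). *Acsm1* had 464 CPM in the KO male library, against 369 and 350.0 CPM in the KO and WT female libraries, with 253 and 276 CPM in KO mix and WT mix (log2 fold change 0.57, SE 0.13, adjusted p = 0.00481), and passed in PTc and PT2 as well. Its call was lost on leaving out either of the female libraries in PTs, in 7 of 10 alternatives in PTc and in 4 of 10 in PT2. *Acsl1*, which activates long chains, went the other way, with 33.4 CPM in the KO male library, against 277 and 300.1 CPM in the KO and WT female libraries, with 110.3 and 50.2 CPM in KO mix and WT mix. It was called lower in PT1 (-2.12, lost under DESeq2 and on leaving out either of the female libraries) and PT2 (-2.02) but not in PTs (log2 fold change -2.90, SE 0.67, adjusted p = 0.0966), where the mixed libraries also differed from each other by over 2-fold. In LOH, *Acsl1* was level across libraries, and its male minus female change differed between PTs and LOH (-3.18, SE 0.28, adjusted p = 1.64e-05).

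The carnitine shuttle had 1 call among its 4 genes in PTs. *Slc25a20* had 17.5 CPM in the KO male library, against 39.2 and 45.6 CPM in the KO and WT female libraries, with 16.9 and 18.5 CPM in KO mix and WT mix and was lower in the male (log2 fold change -1.07, SE 0.21, adjusted p = 0.00158, lost under DESeq2). *Cpt1a* had 162 CPM in the KO male library, against 143 and 141 CPM in the KO and WT female libraries, with 81.9 and 96.8 CPM in KO mix and WT mix, and *Cpt2* had 85.3 CPM in the KO male library, against 123 and 109.8 CPM in the KO and WT female libraries, with 76.3 and 64.9 CPM in KO mix and WT mix, neither past the threshold. *Crat* had 38.4 CPM in the KO male library, against 51.2 and 47.5 CPM in the KO and WT female libraries, with 52.9 and 50.5 CPM in KO mix and WT mix. The 3 genes other than *Slc25a20* thus showed no call between the sexes in any of the 6 types.

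Of the 4 mitochondrial acyl-CoA dehydrogenases, which open each round, the medium- and short-chain enzymes were called higher in KO male. *Acadm* had 1264 CPM in the KO male library, against 781 and 809 CPM in the KO and WT female libraries, with 840.2 and 719 CPM in KO mix and WT mix (log2 fold change 0.87, SE 0.13, adjusted p = 0.000220), and was called in PT1 too (0.73, lost under DESeq2 and without KO female). *Acads*, the short-chain enzyme, had 218 CPM in the KO male library, against 131 and 125 CPM in the KO and WT female libraries, with 100.2 and 120.4 CPM in KO mix and WT mix (log2 fold change 0.97, SE 0.14, adjusted p = 0.000116). *Acadl* had 286 CPM in the KO male library, against 299 and 314 CPM in the KO and WT female libraries, with 228 and 209.5 CPM in KO mix and WT mix. *Acadvl* had 197 CPM in the KO male library, against 213 and 192 CPM in the KO and WT female libraries, with 113 and 114 CPM in KO mix and WT mix. Neither passed, and their male values lay within the range of the other libraries.

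In the steps that follow, the genes did not move as 1 group. *Hadh*, the medium- and short-chain hydroxyacyl-CoA dehydrogenase, had 538 CPM in the KO male library, against 474 and 426 CPM in the KO and WT female libraries, with 335 and 371 CPM in KO mix and WT mix (log2 fold change 0.46, SE 0.14, adjusted p = 0.0225). That call was lost under DESeq2, with genotype as a term, and without KO female or without WT female. *Hadha* had 88.0 CPM in the KO male library, against 157 and 168 CPM in the KO and WT female libraries, with 91.6 and 73.8 CPM in KO mix and WT mix (log2 fold change -0.68, SE 0.16, adjusted p = 0.00523, lost under DESeq2 and without WT female), and its partner *Hadhb*, with 172 CPM in the KO male library, against 254 and 266 CPM in the KO and WT female libraries, with 124 and 102 CPM in KO mix and WT mix, leaned the same way without passing (-0.39). *Acaa2*, the mitochondrial 3-ketoacyl-CoA thiolase, had 9.10 CPM in the KO male library, against 372 and 405 CPM in the KO and WT female libraries, with 118 and 37.4 CPM in KO mix and WT mix, so the male value rests on 40 UMIs. It was called lower in PT2 (log2 fold change -2.18, SE 0.29, adjusted p = 9.40e-08) and not in PTs (log2 fold change -5.21, SE 1.23, adjusted p = 0.125), where the 2 mixed libraries also lay far apart. In LOH *Acaa2* had 324 CPM in KO male, against 357 and 319 CPM in the female libraries, with no such gap. *Echs1*, the short-chain enoyl-CoA hydratase, had 385 CPM in the KO male library, against 425 and 403 CPM in the KO and WT female libraries, with 207 and 212 CPM in KO mix and WT mix and was not called.

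The auxiliaries that deal with double bonds split by gene. *Eci3* had 1709 CPM in the KO male library, against 998 and 1006 CPM in the KO and WT female libraries, with 392 and 404 CPM in KO mix and WT mix (log2 fold change 0.97, SE 0.12, adjusted p = 3.66e-05), and was called in PT1 and PT2 too, where DESeq2 and the fits without a female library lost it. *Eci2* had 173 CPM in the KO male library, against 133 and 137 CPM in the KO and WT female libraries, with 73.0 and 75.9 CPM in KO mix and WT mix (log2 fold change 0.56, SE 0.13, adjusted p = 0.00558), a call lost under DESeq2 and on leaving out either of the female libraries. *Eci1*, the mitochondrial isomerase, had 109 CPM in the KO male library, against 163 and 176 CPM in the KO and WT female libraries, with 159 and 140.5 CPM in KO mix and WT mix and was lower in the male (log2 fold change -0.43, SE 0.14, adjusted p = 0.0418). That call was lost in 5 of 10 alternatives, among them DESeq2 and genotype as a term. *Decr2* had 23.4 CPM in the KO male library, against 48.3 and 58.3 CPM in the KO and WT female libraries, with 24.8 and 22.1 CPM in KO mix and WT mix (log2 fold change -0.98, SE 0.20, adjusted p = 0.00193, lost under DESeq2 and without WT female). *Decr1*, the mitochondrial dienoyl-CoA reductase, had 295 CPM in the KO male library, against 262 and 300.5 CPM in the KO and WT female libraries, with 145 and 134 CPM in KO mix and WT mix and was called only in PTc (0.69), a call lost in 3 of 10 alternatives. Among the electron transfer genes, *Etfa*, the α subunit, had 439 CPM in the KO male library, against 345 and 354 CPM in the KO and WT female libraries, with 293 and 286 CPM in KO mix and WT mix (log2 fold change 0.53, SE 0.13, adjusted p = 0.00633), a call lost on leaving out either of the female libraries. *Etfb* had 1254 CPM in the KO male library, against 1474 and 1503 CPM in the KO and WT female libraries, with 853 and 699.7 CPM in KO mix and WT mix, and did not pass. The oxidoreductase *Etfdh* (48.1 to 66.9 CPM) did not pass either.

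Peroxisomal members changed in both directions. *Pecr*, the peroxisomal trans-2-enoyl-CoA reductase, had 1062 CPM in the KO male library, against 376 and 370.3 CPM in the KO and WT female libraries, with 476 and 577 CPM in KO mix and WT mix (log2 fold change 1.71, SE 0.14, adjusted p = 2.81e-07), and was called higher in PTc, PT1 and PT2. *Acox3*, an acyl-CoA oxidase of branched chains, had 211 CPM in the KO male library, against 87.4 and 82.2 CPM in the KO and WT female libraries, with 82.2 and 127 CPM in KO mix and WT mix (log2 fold change 1.52, SE 0.21, adjusted p = 0.000650). *Scp2* had 3016 CPM in the KO male library, against 2443 and 2432 CPM in the KO and WT female libraries, with 1064 and 1079 CPM in KO mix and WT mix (log2 fold change 0.51, SE 0.12, adjusted p = 0.00620), likewise lost on leaving out either of the female libraries. *Acaa1b*, the peroxisomal thiolase B, had 143 CPM in the KO male library, against 397 and 349 CPM in the KO and WT female libraries, with 169 and 148 CPM in KO mix and WT mix (log2 fold change -1.18, SE 0.15, adjusted p = 4.27e-05), and was lower in PT1 and PT2 as well (in PT2 lost under DESeq2, without KO female and over cells of low mitochondrial share), whereas its paralog *Acaa1a* (34.0 to 55.0 CPM) was called in no type. *Ephx2* had 540.1 CPM in the KO male library, against 163 and 167 CPM in the KO and WT female libraries, with 209 and 316 CPM in KO mix and WT mix (log2 fold change 1.92, SE 0.20, adjusted p = 9.76e-05), and rose in PTc and PT2. *Cat*, catalase, was called only in PTc (-0.49, lost in 5 of 10 alternatives), with 449 CPM in the KO male library, against 573 and 644 CPM in the KO and WT female libraries, with 519 and 454 CPM in KO mix and WT mix. *Hao2* had 1226 CPM in the KO male library, against 4585 and 4658 CPM in the KO and WT female libraries, with 1351 and 706 CPM in KO mix and WT mix, a gap of over 3-fold that did not pass (log2 fold change -1.71, SE 0.54, adjusted p = 0.162) beside mixed libraries that differed among themselves. *Cat* in PTs had 529.9 CPM in the KO male library, against 744 and 732 CPM in the KO and WT female libraries, with 529.8 and 599.9 CPM in KO mix and WT mix. *Ehhadh*, the peroxisomal bifunctional enzyme, *Hsd17b4*, *Ech1* and *Abcd3* were not called between the sexes in PTs.

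Both regulators were lower in the male. *Ppara*, which encodes PPARα, had 30.2 CPM in the KO male library, against 75.6 and 75.9 CPM in the KO and WT female libraries, with 29.0 and 27.8 CPM in KO mix and WT mix (log2 fold change -1.12, SE 0.17, adjusted p = 0.000149), and *Pex11a*, a peroxisome division factor, had 43.0 CPM in the KO male library, against 89.4 and 87.0 CPM in the KO and WT female libraries, with 48.2 and 52.9 CPM in KO mix and WT mix (log2 fold change -0.83, SE 0.16, adjusted p = 0.00112). The mixed libraries were close to the male value for both genes.

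The calls in LOH and DCT are set here beside red blood cells. A level at or below theirs does not by itself show that the RNA is free. *Acsm2*, *Acsm3*, *Pecr* and *Eci3* were called higher in the male in LOH, and all 4 were at or below their red blood cell level in each of the 4 libraries compared. *Acsm2* was called higher in DCT too, but its log2 fold change turned to -0.85 over cells with at most 25% mitochondrial UMIs. *Hao2* was called lower in DCT (log2 fold change -1.54, SE 0.31, adjusted p = 0.00160), with *Hao2* at 43.1 CPM in KO male, against 154 and 103 CPM in the female libraries. Red blood cells of the same libraries had 511 CPM of *Hao2* in KO male, against 1433 and 1199 CPM, a gap in the same direction. The part of free RNA in these calls was not tested.

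The mixed libraries gave a second view of sex that the calls had not used as a contrast. Cells of PTs with a Y-linked UMI and no *Xist* UMI (male-marked, 121 cells in KO mix and 216 in WT mix) were set beside cells with *Xist* alone (female-marked, 280 and 94 cells), as a description with no test. Of the 20 members called in PTs, 15 kept their direction in both mixed libraries, beside 67.7% of the 2424 genes called. In PTc 7 of 8 did so, beside 70.4% of 436 genes. The marked male cells were deeper, with medians of 6555 and 4762 UMIs, against 5014 and 3998 UMIs in the female-marked cells of KO mix and WT mix.

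*Acsm3* had 519 CPM in male-marked and 25.8 CPM in female-marked cells of KO mix, and 415 and 27.2 CPM in those of WT mix. *Acsm2* had 3674 CPM in male-marked and 1275 CPM in female-marked cells of KO mix, and 3714 and 1546 CPM in those of WT mix, and *Ephx2* 299 CPM in male-marked and 120.2 CPM in female-marked cells of KO mix, and 345 and 174 CPM in those of WT mix. In each of these, the male-marked cells of both genotypes were higher. *Acaa1b* had 68.7 CPM in male-marked and 266 CPM in female-marked cells of KO mix, and 101 and 334 CPM in those of WT mix. The 3 genes with wide intervals in the fit of libraries were also far apart here. *Acaa2* had 17.8 CPM in male-marked and 236 CPM in female-marked cells of KO mix, and 11.4 and 212 CPM in those of WT mix, and *Hao2* 455 CPM in male-marked and 2419 CPM in female-marked cells of KO mix, and 411 and 2160.2 CPM in those of WT mix. *Acsl1* had 19.1 CPM in male-marked and 217 CPM in female-marked cells of KO mix, and 27.4 and 207 CPM in those of WT mix, so all 3 were lower in male-marked cells of KO and WT alike. The called members that did not keep their direction in both libraries were *Acsm1*, *Acadm*, *Hadh*, *Eci2* and *Scp2*. All were called higher in KO male, with a log2 fold change under 0.9 in the fit. Every member called lower in KO male kept its direction. Changes as small were kept for *Etfa* (0.53), *Hadha* (-0.68), *Eci1* (-0.43) and *Pex11a* (-0.83). *Acadm* had 802 CPM in male-marked and 910.1 CPM in female-marked cells of KO mix, and 697 and 717 CPM in those of WT mix, and *Eci2* 62.3 CPM in male-marked and 81.1 CPM in female-marked cells of KO mix, and 74.7 and 95.1 CPM in those of WT mix, so for both the male-marked cells were lower in both libraries. *Scp2* had 1072 CPM in male-marked and 1102 CPM in female-marked cells of KO mix, and 1029 and 1206 CPM in those of WT mix, also lower in both. The fit of libraries had given the opposite direction for these 3 genes.

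**Figure D4:**
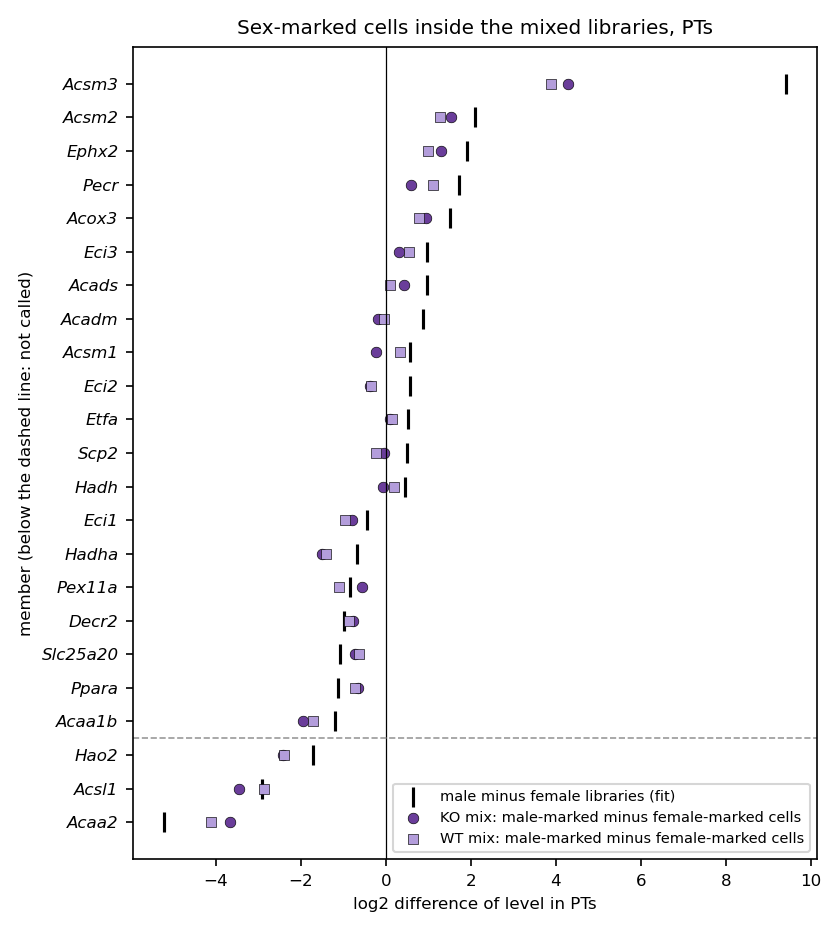
Log2 difference between male and female in PTs for the 20 called members and, below the dashed line, *Hao2*, *Acsl1* and *Acaa2*. Black ticks give the fit of the male against the female libraries, points the difference between male-marked and female-marked cells within KO mix and WT mix (CPM plus 1), and the points of both libraries lie on the same side of 0 as the tick for 15 of the 20.

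Other genes of the pathway, a list of 63 of which 62 were in the matrix, were counted beside the members. Those named here were chosen after their values were seen. In PTs, 28 of 56 tested were called between the sexes, 15 higher and 13 lower in the male, beside 23.4% of all genes. Higher were *Cd36*, the fatty acid translocase (782 CPM in KO male, against a mean of 4.11 CPM in the female libraries), *Crot*, the peroxisomal carnitine octanoyltransferase (467 against 114 CPM), and *Amacr*, the racemase of branched chains (406 against 97.0 CPM). Lower were *Pdk4*, the kinase that restrains pyruvate oxidation (3.64 against 45.9 CPM), and *Hacl1*, the lyase of 2-hydroxy acids (21.4 against 237 CPM). *Fabp1*, the liver fatty acid binding protein, had 0 CPM in KO male, against a mean of 40.7 CPM in the female libraries. Counts were 11 of 53 in PTc (background 4.79%), 15 of 48 in PT1 (6.15%) and 13 of 47 in PT2 (6.15%). They were 3 of 50 in LOH (0.938%) and 2 of 38 in DCT (0.735%). Between KO and WT, 0 genes of this list were called in any type in the fit without covariates, where no other gene was called.

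The libraries also differed by run, a comparison added after the data were seen. Run and the mixing of sexes cannot be told apart, since both mixed libraries were run 3. Between run 3 and run 2, 8 of 39 members were called in PTs (background 7.85%), 6 in PTc (13.8%), 9 in PT1 (23.4%), 5 in PT2 (7.65%), 13 in LOH (25.1%) and 10 of 38 in DCT (16.2%), so in PTc and PT1 the share was near the background. Lower in run 3 were 7 of 8 called members in PTs, 5 of 6 in PTc, 8 of 9 in PT1, 4 of 5 in PT2, 10 of 13 in LOH and 8 of 10 in DCT. Over all genes tested, 4.18% were called higher and 3.67% lower in PTs, 7.96% and 5.86% in PTc, 11.8% and 11.6% in PT1, 4.19% and 3.46% in PT2, 12.3% and 12.9% in LOH, and 7.92% and 8.31% in DCT. The counts moved with single libraries. No share over all genes is given for these fits, so a change in members cannot be told from a change in all genes. In PTs, 0 were called without KO mix or without WT mix, 1 without KO female or without WT female and 25 without KO male. In PTc the count was 1 without either mixed library, 3 without KO female and 12 without KO male, and in PT1 1 without KO mix, 5 without WT mix and 19 without KO male. In PT2 it was 0 without KO mix, 1 without WT mix, 3 without either female library and 15 without KO male, and in DCT 4 without KO mix.

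*Ehhadh* was higher in run 3 in all 6 types, by 1.23 in PT1 to 2.25 in DCT on the log2 scale (adjusted p from 5.59e-06 to 0.00649). In PTs it had 280.3 and 221 CPM in KO mix and WT mix, against 82.6, 78.5 and 103 CPM in KO female, KO male and WT female. Leaving out single libraries kept the log2 fold change in PTs between 1.51 and 1.87, with the call kept in 3 of 5 such fits. In LOH and DCT the level of *Ehhadh* was at or below that of red blood cells in each library compared. Red blood cells had 84.8 CPM in KO mix, against 9.91 to 23.6 CPM in the 3 libraries of run 2. The KO mix value rests on few UMIs of *Ehhadh*, since its 41 red blood cells held 70787 UMIs of all genes. WT mix had 11 red blood cells, too few for a level. *Scp2* was lower in run 3 in all 6 types (-1.26 in PT1 to -0.48 in DCT), with 1064 and 1079 CPM in PTs of KO mix and WT mix, against 2432 to 3016 CPM in run 2. *Abcd3*, the peroxisomal importer of acyl-CoA esters, was lower in 5 of 6 types, with 187 and 219 CPM in PTs of KO mix and WT mix, against 445, 422 and 462 CPM in KO female, KO male and WT female. *Ech1*, a dienoyl-CoA isomerase, had 216 and 212 CPM in PTs of KO mix and WT mix, against 418, 427 and 389.6 CPM in KO female, KO male and WT female. *Hsd17b4*, the peroxisomal D-bifunctional protein, had 106 and 104 CPM in PTs of KO mix and WT mix, against 201, 163 and 205 CPM in KO female, KO male and WT female. Together with *Decr1*, *Echs1* and *Etfb*, these genes were called lower in PTs, where no mixed library reached any library of run 2.

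In PT1 the calls also took in *Eci3* and *Hadhb*, in PTc and PT2 *Eci3* and *Ppara*, and in LOH and DCT *Acaa2*, *Hadhb* and *Acadvl*, all lower in run 3. *Eci2* was lower in LOH and *Slc25a20* in DCT. *Cat* and *Acsm1* were higher in LOH and *Acsm3* in DCT, though *Acsm1* turned to -0.05 over cells with at most 25% mitochondrial UMIs. Among proximal tubule markers in LOH, *Kap*, which is known as an androgen-responsive gene, had 3866 and 4833 CPM in KO mix and WT mix, against 2795 CPM in KO male and 47.3 and 32.1 CPM in KO female and WT female. The other 8 markers summed to 751 and 575 CPM in KO mix and WT mix, against 417, 309 and 284 CPM in KO female, KO male and WT female. The part of these marker differences in the calls was not tested. For the mitochondrial share, fits over cells with at most 25% mitochondrial UMIs and without mitochondrially encoded genes were run as alternatives. Its part as a cause was not tested. Within UMIs of nuclear genes alone, the members summed to 1.78% and 1.79% in PTs of KO mix and WT mix, against 2.29% to 2.59% in run 2, and to 0.862% and 0.846% in LOH, against 0.826% to 0.908%.

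**Figure D5:**
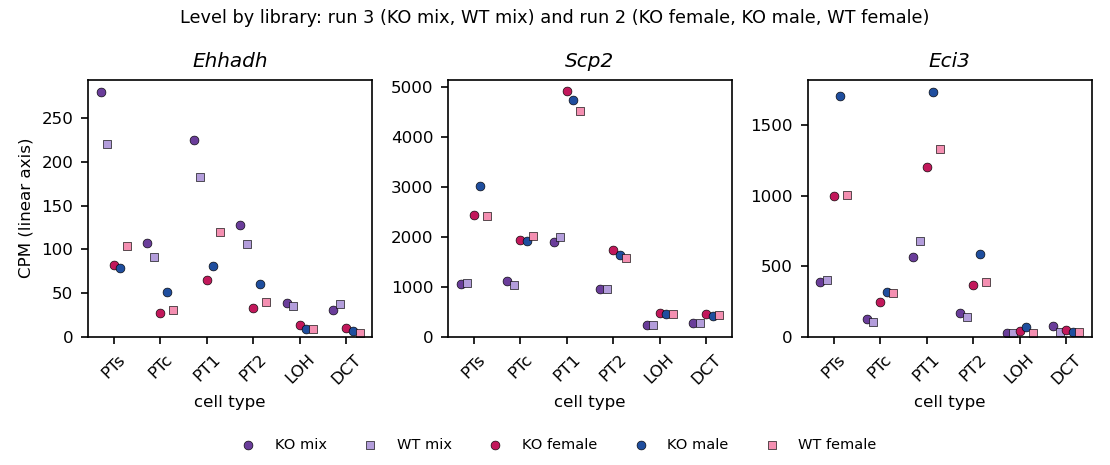
CPM (linear axis) of *Ehhadh*, *Scp2* and *Eci3* in the 6 tested cell types, 1 point per library, with run 3 (KO mix, WT mix) left of run 2 in each group. *Ehhadh* is higher in both run 3 libraries in every type, and *Scp2* lower.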

How the data were processed

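Kidney cells of 5 libraries (3 KO, 2 WT) were profiled with 10x 3′ chemistry. The authors mapped and counted UMIs with Cell Ranger 4.0.0 on mm10, removed genes seen in few cells and cells with few UMIs or a very high mitochondrial share, and assigned cell types with Seurat 3.2.2.9001 on joined libraries. The deposited matrix holds raw counts of UMIs for 17389 genes in 14197 cells. The deposited annotation gives the mitochondrial percent of each cell, and 4 of its columns were not used. Doublets were predicted by the authors with Scrublet and were not removed further here. In all, 25 barcodes occurred in more than 1 library.

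UMIs were added up over the cells of a type in each library, with a minimum of 20 cells, and CPM refer to the total of that sum. Tests were two-sided and used edgeR 4.0.16 in R 4.3.3 (robust quasi-likelihood, TMM, filterByExpr). P-values were adjusted after Benjamini and Hochberg over all genes tested in a type, with 0.05 as the threshold. SE is the absolute log2 fold change over the square root of F and understates the error of a gene with few UMIs in 1 group, so *Acsm3* is given with an exact counting interval instead. KO was compared with WT without covariates, and male with female in a fit on sex composition. The fits were tested on simulated data.

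The 39 members and all lists were chosen with earlier results of these data known. Values in every library were given for members past the threshold in any fit, for the 2 most abundant of each role in the proximal tubule, for the 3 with the lowest p in a type between genotypes or between sexes, and for those highest outside the proximal tubule. This rule named all members but *Etfdh*. Alternatives were DESeq2 1.42.0, its size factors in edgeR, other filters on low counts, blocks for sex composition or run, genotype as a term, cells with at most 25% mitochondrial UMIs, totals without mitochondrially encoded genes, a threshold of 0.01, and leaving out single libraries. The comparison of runs, the interactions, the split of the mixed libraries, the marker sum without *Kap* and the counting interval of *Acsm3* were added after the data were seen. The strand setting of the counting was not given, so overlapping genes are treated as uncertain. The labels name sex composition for each library, which pairs KO female with WT female and KO mix with WT mix. Deviations of paired libraries from the genotype means correlated at 0.546 to 0.803 across genes, with 2 pairs in each type. WT has 2 libraries, whose deviations mirror each other, so the 2 pairs are not independent. Each pair also shares a sequencing run, so the correlation cannot tell run from sex composition.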

Additional observations from a re-analysis of the deposited data

Results flagged for a closer look

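The male minus female change differed between cell types for 19 members between PTs and PTc and for 11 between PTs and LOH, by the interaction of cell type and sex in 1 edgeR fit with the library as a block. The only male library is KO, so the male change of a type rests on that library. Values are log2 differences between the 2 changes. Against PTc, the change in PTs was more towards the male for *Acsm3* (3.64), *Acsm2* (1.08), *Eci3* (0.83), *Ephx2* (0.75), *Acox3* (0.75), *Acads* (0.67), *Acadm* (0.62), *Scp2* (0.61), *Pecr* (0.61), *Echs1* (0.53) and *Hadh* (0.45). It was more towards the female for *Acaa2* (-3.83), *Acsl1* (-1.70), *Acaa1b* (-1.04), *Hao2* (-0.93), *Ehhadh* (-0.81), *Cpt2* (-0.66), *Hadha* (-0.62) and *Decr1* (-0.42). Against LOH, it was more towards the male for *Acsm3* (5.46), *Acads* (1.08), *Ephx2* (0.99), *Acox3* (0.98), *Acadm* (0.67), *Hadh* (0.62) and *Scp2* (0.46), and more towards the female for *Acsl1* (-3.18), *Hao2* (-1.17), *Hadha* (-0.65) and *Cat* (-0.58). *Acsm3* had 6 and 4 UMIs in PTs of the female libraries, so its values are imprecise. *Acsm3*, *Acsm2*, *Pecr*, *Eci3* and *Hao2* in LOH lay at or below the level of red blood cells.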

How the results depend on the processing

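Depth and design set the limits: 3 KO and 2 WT libraries, 1 male library, and sexes that are mixed in run 3 only. For the sexes and the runs, counts of members under an alternative are given without the share over all genes. Between KO and WT, 0 members were called in every type under every alternative run, with 1 exception. The replicate block on sex composition called 1 member in PT1, and under this block the log2 fold changes of *Eci3* (-0.013) and *Acads* (-0.077) in PTs turned below 0. The pairing changed no other call of a member. Leaving out single libraries gave -0.008 to 1.267 for *Eci3* and -0.093 to 0.519 for *Acads* in PTs, -0.627 to 0.002 for *Crat* in PT1 and -0.243 to 1.134 for *Pecr* in DCT, with 0 members called throughout.

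Between male and female, DESeq2 called 4 members in PTc, 1 in LOH and 0 in DCT, and a threshold of 0.01 left 4 in PTc. Genotype as a term gave 11 in PT1 and 1 in DCT. Cells with at most 25% mitochondrial UMIs gave 12 in PT1 and 1 in DCT, where *Acsm2* turned to -0.849. A minimum of 20 counts in every library gave 1 in LOH and 1 in DCT. Leaving out single libraries gave 12 to 28 in PTs, 7 to 15 in PTc, 4 to 15 in PT1, 6 to 10 in PT2, 2 to 5 in LOH and 1 to 2 in DCT.

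Between run 3 and run 2, DESeq2 called 13 members in PTs and 6 in DCT. Cells with at most 25% mitochondrial UMIs gave 5 in DCT and turned *Acsm1* in LOH to -0.047. Leaving out single libraries gave 0 to 25 in PTs, 1 to 12 in PTc, 1 to 19 in PT1, 0 to 15 in PT2, 9 to 16 in LOH and 4 to 10 in DCT. The causes were not tested. Over run 3 alone, the median log2 difference was 0.695 between PTs and LOH and 0.253 between PTs and PTc, and over single libraries left out 0.795 to 0.896 and 0.348 to 0.518. Of the values of single genes under an alternative, 925 kept direction and side of the threshold, 190 lost the call and 8 changed sign.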
